A study of Mus musculus with 16 samples.

Results

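The carnitine shuttle and the mitochondrial beta-oxidation spiral were followed through 10 genes, Cpt1a, Cpt2, Slc25a20, Acadm, Acadl, Acadvl, Hadha, Hadhb, Hadh and Echs1, out of 55414 gene identifiers in the count table. The genes were chosen by name as the core enzymes and carriers of the pathway, after earlier results of these data had brought Cpt1a forward by its difference between the central nervous system (CNS) and the bone marrow (BM). All 10 matched 1 identifier each, and all 10 entered the tests, which asked for a mean count of 10 or more (18878 identifiers). Because the niche difference chose Cpt1a, the values of the 10 genes across niches are given below as a description with no p-value printed. Their calls at a threshold are counted beside those of all genes, and nothing is read from them. Tests are given for the comparison of cell types and for the interaction.

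The series measured bulk RNA in leukaemia-propagating cells from mice that model acute lymphoblastic leukaemia of the pro-B type in infants. Every library, in all groups, carried the genotype Kmt2a-AFF1+ with overexpression of miR-128a. LSK cells were sorted as lineage-negative, Sca1+, cKit+ and IL7R+, and LK cells (LK/CLP in the sample titles) as lineage-negative, Sca1- and cKit+, each from BM and from CNS, with 4 libraries in each of the 4 groups. The age and strain of the animals, the promoter that drives the fusion and pooling of animals are not given in the sources used here, and there is no group without the fusion or without miR-128a. Each BM library shares the stem of its description with 1 CNS library of the same cell type, which gives 8 stems. Descriptions of LSK and LK libraries with the same title number also begin alike, so the 8 stems may not be independent of one another. Nothing in the labels says that libraries of a group came from separate animals, so p-values measure the spread between these libraries, which may be technical in part.

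Totals ran from 19164000 to 29233000 counts per library (rounded). The pro-B label was checked against 12 marker genes, of which 8 had a mean below 1 CPM (the count of a gene scaled to a fixed library total). Among those 8, Ebf1 lay between 0.0445 and 1.44 CPM and Pax5 between 0.0445 and 1.52 CPM. Of the others, Cd79a and Blnk had means of 1.03 and 1.10 CPM, while Rag1 lay between 213 and 341 CPM and Dntt between 10.5 and 248 CPM. Of 12 T-cell and NK-cell markers, 7 had a mean below 1 CPM, among them the receptor genes Cd3e (mean 0.276 CPM) and Trac (0.193 CPM). Of the others, Bcl11b lay between 256 and 328 CPM, Lck between 199 and 252 CPM and Cd247 between 89.6 and 137 CPM. Cd4 and Cd8a had means of 8.63 and 6.01 CPM. The B-lineage transcription factors Ebf1 and Pax5 were therefore near 0 in these libraries, and the cells are called LSK and LK after their sort. Of the sort antigens, Kit lay between 116 and 168 CPM and Il7r between 59.5 and 103 CPM, while Ly6a, the gene of Sca1, lay between 0.466 and 2.26 CPM.

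Long-chain fatty acids cross the mitochondrial inner membrane as carnitine esters. The CPT1 enzymes on the outer membrane make the ester in the step that malonyl-CoA inhibits, the carrier encoded by Slc25a20 exchanges it for free carnitine, and CPT2 on the inner membrane returns the acyl group to coenzyme A. Acyl-CoA dehydrogenases (Acadvl, Acadl and Acadm, for very long, long and medium chains), enoyl-CoA hydratases, 3-hydroxyacyl-CoA dehydrogenases and thiolases then shorten the chain; Hadha and Hadhb encode the subunits of the trifunctional protein that carries out the last steps on long chains, and Echs1 and Hadh act on shorter ones. Lymphoid leukaemia cells can use this pathway, and fatty acid metabolism has been studied as a feature of leukaemia cells in the CNS.

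Promoter sequence is shown for the gene with the largest niche difference among the 10 and for the gene pair whose products form 1 complex, because the pair is transcribed in opposite directions from 1 short stretch. Sequences were taken from RefSeq on build GRCm38.p6, in which all 10 genes had an entry. The first line holds the 250 bases before the start of Cpt1a, chr19:3323051-3323300 on the plus strand, and the second the 272 bases between the starts of Hadha (minus strand, to the left) and Hadhb (plus strand, to the right), chr5:30154981-30155252, written on the plus strand. Capitals mark the letters GGGCGG (the GC box), CCAAT (the CCAAT box), AGGTCA (a nuclear receptor half-site) and CACGTG (an E-box) on either strand.
Cpt1a upstream: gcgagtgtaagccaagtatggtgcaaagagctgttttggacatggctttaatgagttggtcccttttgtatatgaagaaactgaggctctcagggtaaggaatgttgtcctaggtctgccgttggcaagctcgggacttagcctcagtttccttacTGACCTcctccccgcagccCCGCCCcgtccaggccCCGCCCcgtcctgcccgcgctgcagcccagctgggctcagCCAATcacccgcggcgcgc
Hadha-Hadhb between starts: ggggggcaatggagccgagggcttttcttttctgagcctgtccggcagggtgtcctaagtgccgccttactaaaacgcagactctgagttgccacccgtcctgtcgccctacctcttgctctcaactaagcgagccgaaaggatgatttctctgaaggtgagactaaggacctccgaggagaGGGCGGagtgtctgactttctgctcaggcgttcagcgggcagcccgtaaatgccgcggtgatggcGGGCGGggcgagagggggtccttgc
The Cpt1a stretch held 2 GC boxes and 1 AGGTCA, all read on the minus strand, and 1 CCAAT, and the stretch between Hadha and Hadhb held 2 GC boxes and none of the other 3.

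Over windows of 300 bases (250 before to 50 after the start), searched on both strands, GGGCGG was present for 8 of the 10 genes and in 35.9% of all 27025 windows of the table. AGGTCA was present for 4 of the 10 (Cpt1a, Acadm, Acadvl and Echs1) and in 16% of all windows. CCAAT was present for Cpt1a and Hadh, and in 37.9% of all windows. None of the 10 windows held CACGTG (7.24% of all windows), the palindromic NRF1 element (0.977%), TCAAGGTCA, the element of estrogen-related receptors (0.407%), or DR1, the direct repeat of the half-site with a spacer of 1 base (0.0444%). The last 2 contain the half-site, so these searches overlap, as do the windows of Hadha and Hadhb. A match is a description of letters and no binding was measured.

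To compare levels between genes, CPM were divided by the length of the longest coding transcript. Cpt1a had the highest level, 33.0 ± 6.21 CPM per kb (SD, n = 16 libraries), and lay above Acadl, the next gene, in 15 of 16 libraries. Acadl (22.2 ± 1.91) and Hadha (20.8 ± 0.933) followed at levels whose ranges overlapped, Acadl being higher in 10 of 16 libraries. Hadh (17.3 ± 1.32), Hadhb (14.7 ± 1.69) and Echs1 (9.91 ± 0.813) came next in CPM per kb, each above the gene after it in all 16 libraries. With the counts of Gm13910, a near-identical copy of Hadhb, added, Hadhb came to 18.997 ± 2.311 CPM per kb and lay above Hadh in 13 of 16 libraries, so the order of Hadh and Hadhb rests on how reads of the copy were assigned. The lowest 4 were Acadm (5.79 ± 0.442), Acadvl (5.63 ± 0.645), Cpt2 (4.71 ± 0.465) and Slc25a20 (3.55 ± 0.375 CPM per kb), of which Acadm lay above Acadvl in 10 and Acadvl above Cpt2 in 14 of 16 libraries. By their means, both genes that act on acylcarnitine at the inner membrane had the lowest levels of the 10, and the outer-membrane enzyme the highest. Among CPT1 enzymes the message was almost all Cpt1a: Cpt1b, the muscle form, had 0.0970 CPM per kb and Cpt1c, the brain form, 0.191 CPM per kb, with means of 6.63 and 12.6 counts per library.

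**Figure D1:**
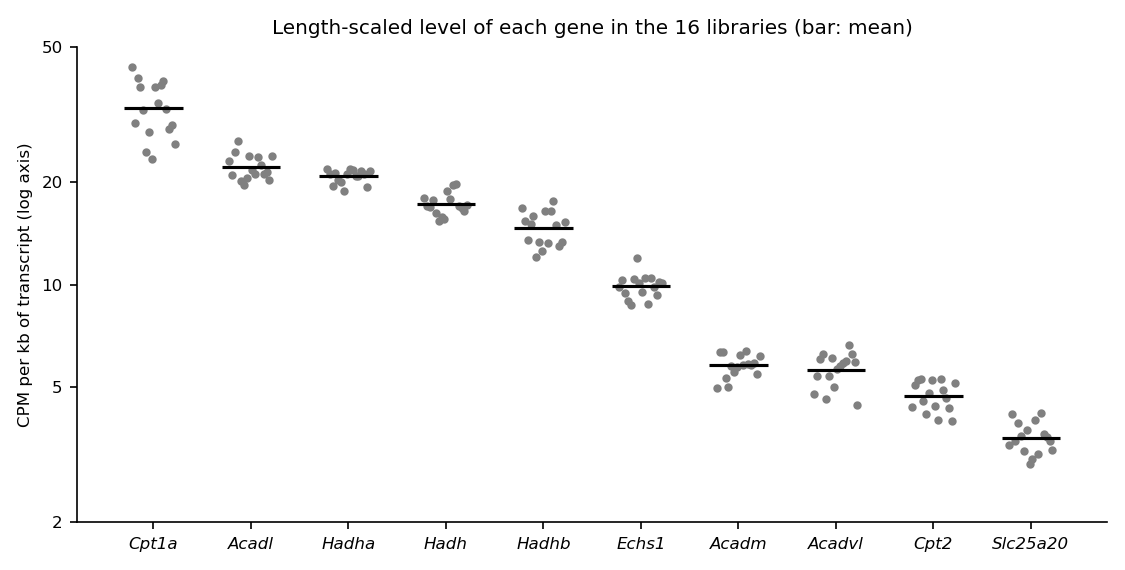
Level of each of the 10 genes in CPM per kb of the longest coding transcript, on a log axis, with 1 point per library (16 libraries) and a bar at the mean. Cpt1a is highest at a mean of 33.0 and Slc25a20 lowest at 3.55 CPM per kb.

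Cpt1a (ENSMUSG00000024900, chromosome 19), the rate-limiting step of entry, was lower in CNS cells of both types. In LSK cells its levels in replicates 1 to 4 were 188.8, 128.7, 174.7 and 164.7 CPM in BM and 140.7, 105.8, 121.7 and 101.3 CPM in CNS. In LK cells they were 165.0, 147.7, 166.5 and 171.1 CPM in BM and 142.1, 124.3, 127.4 and 111.9 CPM in CNS. All 4 CNS libraries lay below all 4 BM libraries in LK cells, whereas in LSK cells the groups overlapped through 1 low BM library (replicate 2) and 1 high CNS library (replicate 1). The group means were 164 ± 25.7 (BM LSK), 117 ± 17.9 (CNS LSK), 163 ± 10.2 (BM LK) and 126 ± 12.4 CPM (CNS LK; SD, n = 4 each). Over both cell types the fitted log2 difference, CNS minus BM, was -0.42 (SE 0.080, or 0.051 with the stem as a block), a level 25.4% lower. The log2 difference was -0.48 within LSK and -0.36 within LK. Within stems the CNS library was lower in 8 of 8, by log2 differences of -0.42, -0.28, -0.52 and -0.70 in LSK and -0.22, -0.25, -0.39 and -0.61 in LK. In bulk RNA a smaller share of cells with the message and less message per cell cannot be told apart.

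**Figure D2:**
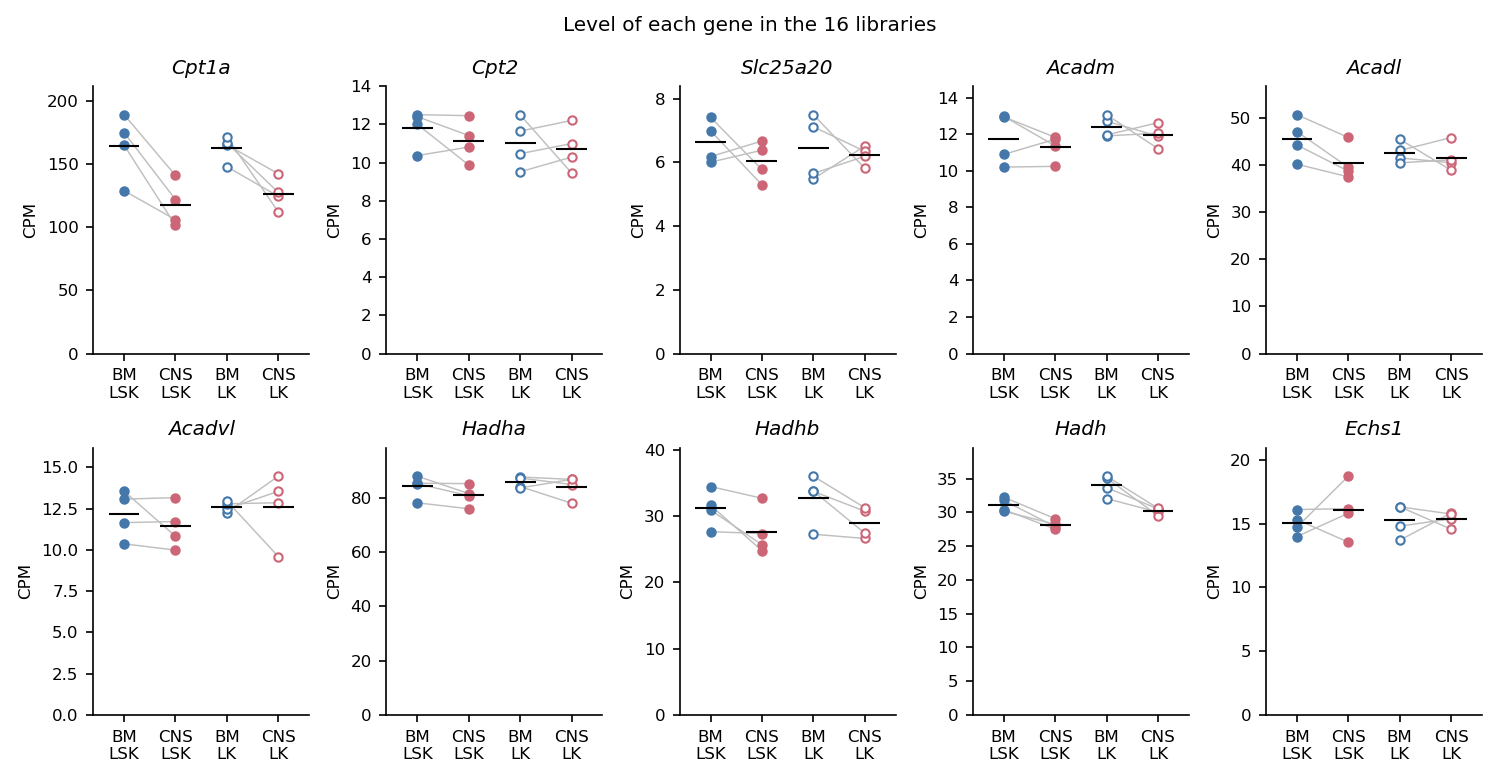
Level of each of the 10 genes in CPM (linear axes, 1 panel per gene) in the 4 groups, with 1 point per library (blue for BM, red for CNS, filled for LSK, open for LK), a bar at the mean (n = 4) and grey lines joining libraries of 1 stem. Hadh points of CNS and BM are apart in both cell types and those of Cpt1a in LK cells; in the other panels CNS and BM overlap.

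The same Cpt1a counts can be set against those of the other genes within each library, which needs no scaling between libraries and restates the chosen difference on another scale. Its count divided by the count of Hadha in the same library was 1.96 ± 0.323 in BM LSK and 1.46 ± 0.250 in CNS LSK cells, and 1.90 ± 0.154 in BM LK and 1.51 ± 0.165 in CNS LK cells (SD, n = 4), and was lower in CNS in 8 of 8 stems. Cpt1a supplied 39.5 ± 3.89% of the counts of the 10 genes in BM LSK, 33.4 ± 3.45% in CNS LSK, 39.1 ± 0.976% in BM LK and 34.3 ± 2.47% in CNS LK. On the scaled CPM, the 10 genes together came to 414 ± 26.9 CPM in BM LSK, 350.5 ± 18.0 in CNS LSK, 416 ± 16.3 in BM LK and 368 ± 14.8 in CNS LK, a sum that was lower in CNS in 8 of 8 stems and in which Cpt1a itself weighs most. Without Cpt1a the sum of the other 9 genes was 249.6 ± 6.01 CPM in BM LSK, 233 ± 6.07 in CNS LSK, 253 ± 6.17 in BM LK and 242 ± 9.49 in CNS LK, lower in CNS in 8 of 8 stems by a mean log2 difference of -0.08.

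Hadh and Hadhb, of later steps of the spiral, were also lower in CNS, by smaller amounts. Hadh (ENSMUSG00000027984, chromosome 3), the short-chain 3-hydroxyacyl-CoA dehydrogenase, had levels of 32.3, 30.4, 30.2 and 31.8 CPM in BM LSK and 29.1, 27.5, 28.2 and 27.9 CPM in CNS LSK cells. In LK cells Hadh had 33.7, 32.1, 35.1 and 35.4 CPM in BM and 30.5, 30.0, 29.5 and 30.6 CPM in CNS. Every CNS library lay below every BM library within each cell type, and the log2 difference over both was -0.16 (SE 0.043), a level 10.4% lower.

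Hadhb (ENSMUSG00000059447, chromosome 5), the thiolase subunit of the trifunctional protein, had levels of 34.4, 31.6, 27.7 and 30.9 CPM in BM LSK and 32.7, 24.8, 27.4 and 25.7 CPM in CNS LSK cells. In LK cells Hadhb had 33.7, 27.3, 33.8 and 36.0 CPM in BM and 30.7, 26.6, 27.4 and 31.3 CPM in CNS. The groups overlapped in both cell types, and the CNS library was the lower one in 8 of 8 stems. The log2 difference was -0.17 (SE 0.072, or 0.050 with the stem as a block), a level 11.3% lower. Reads of Hadhb are uncertain because the processed pseudogene Gm13910 matches it at 99.8% of 1428 bases and has a mean of 209 counts against 720 for Hadhb. With the counts of both added together the log2 difference was -0.20.

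Hadha (ENSMUSG00000025745, chromosome 5), which encodes the partner subunit with the hydratase and dehydrogenase, had levels of 88.0, 85.2, 78.2 and 85.4 CPM in BM LSK and 81.6, 80.8, 76.0 and 85.2 CPM in CNS LSK cells. In LK cells Hadha had 87.7, 87.3, 84.2 and 83.6 CPM in BM and 86.8, 84.9, 78.0 and 86.8 CPM in CNS. The niches overlapped in both types, with a log2 difference of -0.04, and the CNS library was lower in 7 of 8 stems.

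Of the acyl-CoA dehydrogenases, Acadl was lower in CNS in every LSK stem although the groups overlapped, and Acadm and Acadvl had no common direction over stems. Acadl ranged from 40.2 to 50.8 CPM in BM LSK and 37.6 to 45.9 CPM in CNS LSK cells, and from 40.5 to 45.6 CPM in BM LK and 38.9 to 45.9 CPM in CNS LK cells, with a log2 difference of -0.10 and lower CNS values in 6 of 8 stems. Within LSK cells its log2 difference was -0.17, with 4 of 4 stems lower, beside -0.17 for Hadhb and -0.14 for Hadh there, and within LK cells it was -0.03. The interaction of Acadl was -0.14 with a 95% interval of -0.38 to 0.11, so no difference between the cell types is read from this. Acadm ranged from 10.2 to 13.0 CPM in BM LSK, 10.2 to 11.8 in CNS LSK, 11.9 to 13.1 in BM LK and 11.2 to 12.6 in CNS LK cells, with a log2 difference of -0.06. Acadvl ranged from 10.4 to 13.6 CPM in BM LSK, 9.98 to 13.2 in CNS LSK, 12.3 to 13.0 in BM LK and 9.60 to 14.5 in CNS LK cells, with a log2 difference of -0.05. The CNS library was the lower one in 4 of 8 stems for Acadm and in 3 of 8 for Acadvl, so for neither did the stems point one way.

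Of the shuttle genes past Cpt1a, the carrier Slc25a20 ranged from 6.01 to 7.41 CPM in BM LSK, 5.30 to 6.67 in CNS LSK, 5.483 to 7.498 in BM LK and 5.82 to 6.51 in CNS LK cells, with a log2 difference of -0.10. Cpt2 ranged from 10.4 to 12.5 CPM in BM LSK, 9.87 to 12.5 in CNS LSK, 9.52 to 12.5 in BM LK and 9.46 to 12.2 in CNS LK cells, with a log2 difference of -0.06. Each was lower in CNS in 4 of 8 stems. Echs1, the short-chain hydratase, ranged from 14.0 to 16.1 CPM in BM LSK, 13.5 to 18.7 in CNS LSK, 13.7 to 16.3 in BM LK and 14.6 to 15.8 in CNS LK cells, and was the one gene of the 10 above 0, with a log2 difference of 0.05. Exons of Acadvl overlap those of Dvl2 on the opposite strand over 1151 bases, and smaller overlaps of opposite strands touch Echs1 (142 bases, Paox) and Hadha (75 bases, Garem2); whether the counting used strand is not given in the sources used here.

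**Figure D3:**
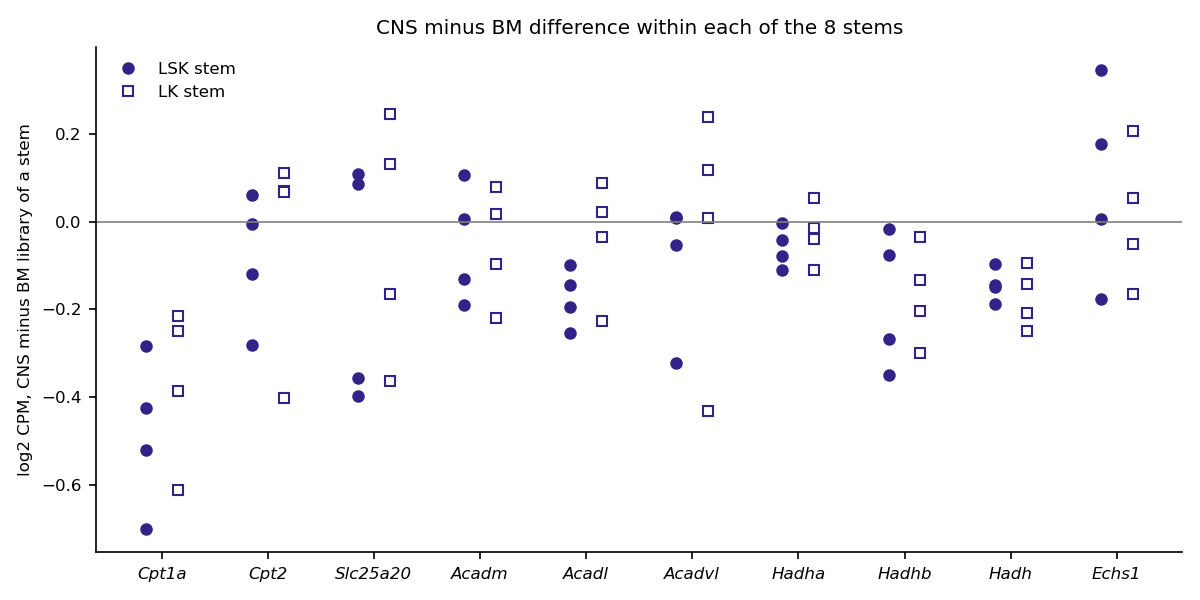
Difference in log2 CPM between the CNS and the BM library of each stem, for each of the 10 genes, with LSK stems and LK stems as separate symbols and a line at 0. All 8 points of Cpt1a, Hadh and Hadhb lie below 0; those of the other genes lie on both sides.

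Read against all genes, 9 of the 10 log2 niche differences were below 0 in the fit without a block, where 50% of the 18878 genes tested were. The signs of Acadvl and Echs1 depended on the setting. The median over the 10 was -0.080 and over all genes 0.000. Lower CNS values in all 8 stems were found for 3 of the 10 and for 273 genes in all (1.45%). Every CNS library lay below every BM library within both cell types for 1 of the 10 (Hadh) and for 7 genes in all (0.0371%); within LSK it was 1 of the 10 (Hadh) and 1.59% of all genes, and within LK 2 of the 10 (Cpt1a and Hadh) and 0.81%. In edgeR's quasi-likelihood test without a block, 0 of 18878 genes (0%) reached the adjusted threshold of 0.05, and 1727 (9.15%), 3 of the 10 among them, reached an unadjusted p of 0.05. DESeq2 called 40 genes at the adjusted threshold, Cpt1a among them. With the stem as a block, 126 genes passed (0.667%), 72 of them lower in CNS (0.381%), and Cpt1a was the 1 gene of the 10 among them. Within LSK cells that fit called 26 genes (0.138%), Cpt1a among them, and within LK cells 12 genes (0.0636%), none of the 10. As Cpt1a was chosen on this contrast, nothing is read from these counts.

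Other measures moved with niche as well. Dntt, the gene of terminal transferase and 1 of the pro-B markers above, was singled out here after its values were seen. With the stem block Dntt was called higher in CNS, with a log2 difference of 0.97 (SE 0.081, adjusted p 9.98e-06 in the edgeR fit). Its CNS values were higher in 8 of 8 stems. Without the block its log2 difference was 0.96 (adjusted p 0.493 in the edgeR fit). Its levels were 145, 36.4, 67.5 and 10.5 CPM in BM LSK and 248, 63.8, 129 and 28.4 CPM in CNS LSK cells, and 48.1, 51.4, 39.1 and 32.1 CPM in BM LK and 92.3, 110.9, 108 and 44.2 CPM in CNS LK cells. The summed level of olfactory and vomeronasal receptor genes, which these cells are not known to use and which here serves as an index of background reads, was 302 to 802 CPM in BM LSK, 709 to 1063 CPM in CNS LSK, 334 to 477 CPM in BM LK and 381 to 911 CPM in CNS LK, and was higher in CNS in 7 of 8 stems. With this index in the stem-block fit the log2 difference of Cpt1a was -0.33 (SE 0.066), and the gene was not among those called. Summed myeloid markers lay at 6.23 to 35.8 CPM in BM LSK, 10.2 to 39.9 in CNS LSK, 9.30 to 23.7 in BM LK and 11.8 to 37.3 in CNS LK, with 8 of 12 below a mean of 1 CPM. Summed microglial markers lay at 5.78 to 7.66, 5.80 to 8.39, 4.72 to 5.70 and 5.66 to 7.35 CPM in the same order, with 10 of 12 below 1 CPM and Tmem119 between 0 and 0.427 CPM. Summed neural markers lay at 34.4 to 49.1, 40.0 to 66.4, 39.5 to 44.3 and 45.4 to 48.0 CPM, mostly Mbp (mean 36.2 CPM). The part of Dntt and of these other cell types in the Cpt1a difference was not tested.

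Between cell types, none of the 10 genes differed by the test, while 45 of all genes tested did (0.238%), 43 of them higher in LSK (0.228%). At an unadjusted p of 0.05 it was 1 of the 10 (Hadh) against 2288 genes in all (12.1%), and DESeq2 called none of the 10. Each stem supplies a BM and a CNS library here, and this fit treats the 16 libraries as independent; with counts summed per stem (8 sums), 0 genes were called, and Hadh had a log2 difference of -0.12 (SE 0.055, adjusted p 0.498 in the edgeR fit). In the fit of all libraries Hadh had a log2 difference, LSK minus LK, of -0.11 (95% interval -0.20 to -0.02), with an unadjusted p of 0.016 and an adjusted p of 0.296 in edgeR's quasi-likelihood test over 16 libraries. The shuttle genes lay around 0, with log2 differences of -0.05 for Cpt1a (-0.21 to 0.12), 0.08 for Cpt2 (-0.09 to 0.25) and 0.003 for Slc25a20 (-0.19 to 0.20). The dehydrogenases had differences of -0.08 for Acadm (-0.22 to 0.07), 0.03 for Acadl (-0.10 to 0.15) and -0.10 for Acadvl (-0.28 to 0.09). The trifunctional subunits had -0.04 for Hadha (-0.13 to 0.05) and -0.07 for Hadhb (-0.22 to 0.08), and Echs1 had 0.02 (-0.12 to 0.16). These intervals bound the difference between LSK and LK cells of each gene under that assumption, and they do not show that the levels were equal.

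**Figure D4:**
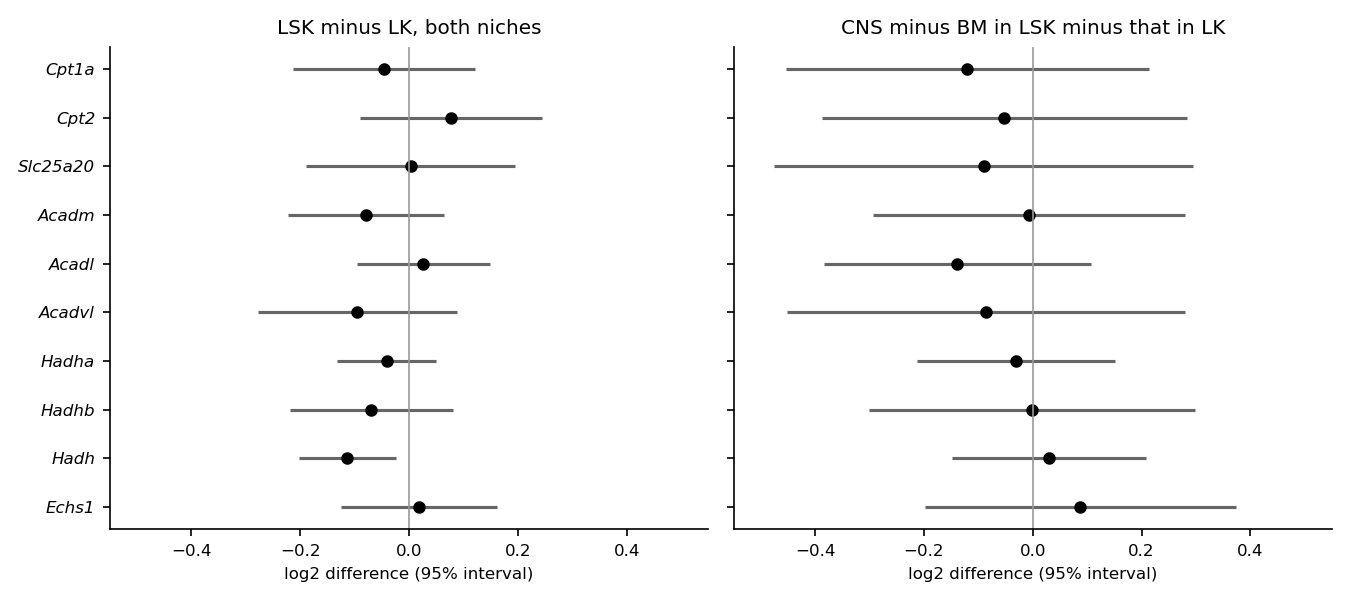
Fitted log2 differences with 95% intervals for the 10 genes: LSK minus LK over both niches, and the interaction (niche difference in LSK minus that in LK). Intervals of all genes but Hadh in the first comparison include 0.

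The interaction asks whether the niche difference was of another size in LSK than in LK cells. For Cpt1a it was -0.12 on the log2 scale (95% interval -0.45 to 0.21), and for Acadl, the largest of the 10, -0.14. None of the 10 passed, nor did any of the 18878 genes, with or without the stem block (0%; 281 genes, 1.49%, at an unadjusted p of 0.05 without it and 589, 3.12%, with it, none of them among the 10). DESeq2 called none of the 10 either. The larger Cpt1a difference in LSK cells is therefore within the spread between libraries.

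Around these 10 genes, lists of other parts of fatty acid use were read for niche and cell type. The other genes of carnitine supply and transfer (10, of which 6 were tested) had a median log2 niche difference of 0.045. The other mitochondrial oxidation genes (17 tested of 17) had one of -0.027, and the peroxisomal oxidation genes (13 of 14) one of -0.067. Fatty acid uptake and activation (14 of 17) had a median of 0.019, and the regulators of oxidation (17 of 20) one of 0.000. The genes listed here as targets of PPAR receptors (11 of 15) had -0.166, and ketone body genes (5 of 5) 0.026. Whether PPAR receptors act on the listed genes in these cells was not tested. Of the genes tested, 2 of 6 were below 0 for carnitine supply, 13 of 17 for mitochondrial and 11 of 13 for peroxisomal oxidation. For uptake and activation it was 6 of 14, for regulators 9 of 17, for PPAR targets 6 of 11 and for ketone bodies 2 of 5. Over all genes tested it was 50%. None of these lists held a gene past the threshold without the block. With it, 1 of the 14 uptake and activation genes and 1 of the 11 listed PPAR targets passed. None of the other lists' genes did, where 126 of all 18878 genes passed (0.667%). These are single genes of short lists, and enrichment was not tested. Between cell types none of their genes passed, and the medians lay between -0.066 and 0.064.

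The 2 genes that passed with the stem block were Fabp5 and Txnip, and both lost the call under other settings. Fabp5, a cytosolic carrier of fatty acids, had 22.5, 18.1, 24.1 and 14.4 CPM in BM LSK and 30.7, 20.6, 37.7 and 16.3 CPM in CNS LSK cells, and 22.7, 11.8, 23.7 and 18.7 CPM in BM LK and 26.2, 16.6, 26.8 and 18.9 CPM in CNS LK cells. It was higher in CNS in 8 of 8 stems although the groups overlapped, with a log2 difference of 0.29 (SE 0.063, adjusted p 0.0358 in the edgeR fit with the block) and of 0.31 without it (adjusted p 0.632). Txnip, an inhibitor of thioredoxin and of glucose uptake, had 27.1, 52.0, 67.0 and 69.7 CPM in BM LSK and 25.7, 42.8, 51.3 and 37.8 CPM in CNS LSK cells, and 45.3, 30.9, 69.7 and 71.1 CPM in BM LK and 44.1, 26.2, 61.5 and 45.9 CPM in CNS LK cells. Txnip was lower in CNS in 8 of 8 stems, again with overlapping groups, with a log2 difference of -0.35 (SE 0.072, adjusted p 0.0294 in the edgeR fit with the block) and of -0.37 without it (adjusted p 0.631). Leaving out single stems moved the adjusted p of Fabp5 past the threshold without LSK 1, LSK 3, LK 1, LK 2 or LK 3, with adjusted p-values from 0.0779 to 0.161, and that of Txnip without LSK 2, LSK 3, LSK 4, LK 3 or LK 4, from 0.0513 to 0.0818. With the background index in the fit neither was called, at adjusted p 0.502 for Fabp5, whose log2 difference was 0.31 (SE 0.092), and 0.864 for Txnip, with -0.24 (SE 0.097).

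The most abundant gene of each of those lists is named for its level. The levels were 33.1 CPM for Aldh9a1 of carnitine synthesis, 52.5 CPM for Acat1, the mitochondrial thiolase, 40.5 CPM for the peroxisomal enzyme Hsd17b4 and 51.7 CPM for the acyl-CoA synthetase Acsl5. They were 471 CPM for the corepressor Ncor1, 245 CPM for the mitochondrial carrier Ucp2 and 65.2 CPM for Oxct1, which activates ketone bodies. Of the receptors and coactivators that drive oxidation genes in other tissues, chosen here after their values were seen, Ppara (mean 0.351 CPM), Pparg (0.193 CPM) and Ppargc1a (0.309 CPM) were below the minimum count, whereas Ppard had 12.7 CPM and Ppargc1b 13.4 CPM. Of the same list, the coactivator Pprc1 lay higher, between 75.6 and 100 CPM. The receptor genes Rxrb, Esrra and Rxra lay at 25.8 to 32.7, 6.95 to 12.9 and 0.160 to 1.20 CPM.

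**Figure D5:**
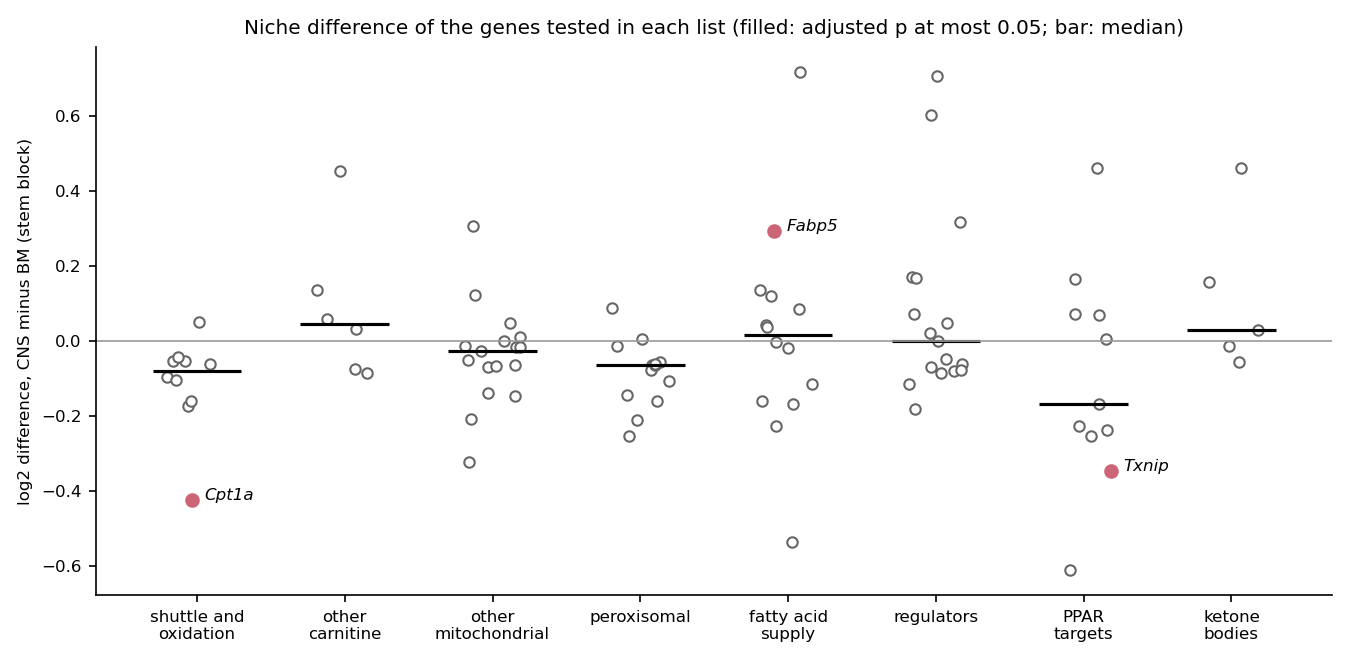
Log2 niche difference (CNS minus BM, fit with the stem block) of every tested gene of the 10-gene set and of the 7 wider lists, with 1 point per gene, a bar at the list's median and filled points for genes at an adjusted p of at most 0.05. The filled points are Cpt1a, Fabp5 (0.29) and Txnip (-0.35); Cpt1a was chosen on this contrast.

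Over the 16 libraries, which share the 4 groups and the stems, the 10 genes did not vary as 1 unit. Of the 45 pairs, 29 had a Pearson r above 0, with a median of 0.152 and a range from -0.408 (Cpt1a and Echs1) to 0.780 (Hadhb and Hadh). Cpt1a had an r of 0.769 with Hadh and 0.682 with Hadhb, the 3 genes that were lower in CNS in every stem; for deviations from the group means, which leave out that shared shift, these were 0.554 and 0.484. Hadha and Hadhb, which share the stretch of sequence printed above, had an r of 0.424, and of 0.241 for deviations from the group means, where Hadhb and Hadh, on different chromosomes, had 0.855. Among 11639 genes with a mean of at least 50 counts, those most like Cpt1a in log2 CPM over the 16 libraries were Tollip (r 0.855), Dok3 (0.847) and Gas7 (0.841). The lowest values were those of Dnah11 (-0.830), Taco1 (-0.772) and Hs6st1 (-0.768). By group means in both cell types, Tollip, Dok3 and Gas7 were lower in CNS and Dnah11, Taco1 and Hs6st1 higher. These r values therefore include the niche shift on which Cpt1a was chosen.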

How the data were processed

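Bulk RNA was extracted from sorted cells with the Quick-RNA Microprep kit, and libraries were made with the SMARTer Stranded Total RNA-Seq v3 Pico kit, per the labels' protocols. The submitters' processing notes name GRCm39 and DESeq2; the aligner and the counting are not given in the sources used here. The deposited table is named normalised, but it holds whole numbers with totals of 19164000 to 29233000 (rounded) that differ between libraries, so its values were treated as the authors' counts per gene. Identifiers with no symbol (3333) held 41.8% of counts and were kept. No column was left out.

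From these counts, edgeR 4.0.16 (R 4.3.3) fitted 4 group means to the 16 libraries after TMM scaling, with a mean of at least 10 counts (18878 genes) and Benjamini-Hochberg adjustment at 0.05. CPM use TMM library sizes. DESeq2 1.42.0, other scalings and filters, blocks and left-out libraries were alternatives. The fit without a block was tested on simulated independent libraries. The stem block and paired libraries were not simulated. Stems come from the descriptions. Same-stem libraries deviated together (correlation over 0.1) in 6 of 8 stems, and in 8 of 8 among genes with a mean of at least 50 counts. There the median was 0.430, against -0.179 between libraries of other stems. Deviations from a group mean sum to 0, which pulls the second value below 0, so it is not an independent reference. The main fit leaves out this pairing, so its niche SEs and counts of genes called are those of unpaired libraries. The stem block uses the pairing and is printed where it changes a call, and as an SE for Cpt1a and Hadhb.

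The 10 genes, the lists and the marker genes were chosen with earlier results of these data known. Named besides the 10 are list genes past the threshold, the most abundant gene of each list, and the 3 highest and 3 lowest correlations with Cpt1a; others are marked. Transcript lengths and chromosomes are from GENCODE M21 (GRCm38), promoters from RefSeq GRCm38.p6, and no coordinates were converted. For 1 symbol, Tmlhe, no identifier was matched.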

Additional observations from a re-analysis of the deposited data

How the results depend on the processing

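The log2 niche difference of Cpt1a stayed below 0 under all 34 alternatives (-0.48 to -0.33; -0.48 to -0.38 with single libraries left out). Counts of genes called moved more. As Cpt1a was chosen on the niche contrast, nothing is read from its calls in the niche comparisons that follow. For CNS against BM over both cell types (0 genes, 0 of the 10) they were 85 with no filter, 40 in DESeq2, 126 with the replicate block on the stem, 18 with the block and background index and 126 with the block and Gm13910 added to Hadhb, and 0 to 147 with libraries or stems left out (78 to 147 with the block); 1 of the 10, Cpt1a, was called in each of these but the index fit (0), and 0 to 1 with libraries or stems left out. Within LSK (0) they were 10 with no filter, 26 with the block, 4 with the index, 26 with Gm13910, and 0 to 37 left out, with 1 of the 10 called with no filter, with the block and with Gm13910, and 0 to 1 left out; the Cpt1a call there was lost without stem LSK 3. Within LK (0) they were 14, 12, 4 and 12 in that order, 0 to 19 left out, with 0 to 1 of the 10 (Cpt1a without stem LSK 4). For LSK against LK (45) they were 290 with no filter, 222 in DESeq2, 162 with the block on title numbers, 0 with counts summed per stem and 15 to 138 left out, with none of the 10 called in any. LSK and LK libraries of the same title number deviated together (correlation over 0.1) in 4 of 8 pairs, and in 6 of 8 among genes with a mean of at least 50 counts (median 0.219); their descriptions also begin alike, but as not every pair passed, the number is not taken as pairing them.

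Differences near 0 changed sign. Over the 34 alternatives the niche difference over both cell types ran from -0.107 to 0.0453 for Acadvl and from -0.0357 to 0.0923 for Echs1. Within LK cells the ranges of Cpt2, Slc25a20, Acadm, Acadl, Acadvl, Hadha and Echs1 also held 0, and within LSK cells those of Acadvl and Echs1. With no filter, LSK minus LK was -0.055 for Slc25a20, -0.029 for Acadl and -0.039 for Echs1; with single libraries left out it ran from -0.0946 to 0.0105 for Cpt1a, -0.0332 to 0.0487 for Slc25a20, -0.00165 to 0.0606 for Acadl and -0.0206 to 0.0565 for Echs1. The interaction of Hadhb was 0.0030 (RLE scaling), 0.024 (upper quartile), 0.024 (mean of at least 50), 0.0084 (symbols only) and 0.0029 (DESeq2), and -0.0918 to 0.0899 left out; that of Acadm was 0.019 (upper quartile), 0.020 (at least 50), 0.0019 (symbols only) and 0.0012 (block with index), and -0.0673 to 0.0540 left out; that of Cpt2 was -0.116 to 0.0232 left out. The cause was not tested in any of these. The replicate block changed no other call of the 10 genes. No alternative scaling moved the median over all genes by over 0.1. With no filter it moved by -0.058 for the niche difference over both cell types, -0.068 for that within LSK and -0.057 for LSK minus LK. The first shift is about as large as the niche differences of Hadha, Acadvl, Acadm, Cpt2 and Echs1, whose sizes and signs therefore depend on the scaling.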
